A study of Bos taurus with 4 samples.

Results

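The genes that carry fatty acids into skeletal muscle and oxidise them were examined in *m. semitendinosus*, a hind-limb muscle, of Hereford (HER) and Holstein-Friesian (HF) bulls. The set held 34 bovine genes. They were chosen by symbol, for their roles in lipolysis at the vessel wall, uptake, storage in and release from lipid droplets, activation, transfer by carnitine and β-oxidation. All array probes whose transcript accession belongs to one of these genes were taken. A probe was matched for 32 of the 34 genes, by 81 probes in all. Of these, 80 probes were measured well enough to test, among 32608 tested probes of 43653 on the array. *CPT1A* and *ACACB* had no matched probe and were not analysed here. The 32 measured genes stood among 9426 tested genes with a symbol.

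Muscle takes up fatty acids that lipoprotein lipase sets free from circulating triglyceride, or draws them from its own lipid droplets. Inside the fibre they are bound by a carrier protein, joined to coenzyme A, passed into the mitochondrion as carnitine esters and shortened in repeated cycles of dehydrogenation, hydration, oxidation and thiolysis. The electrons of the first step reach the respiratory chain through the electron transfer flavoprotein and its membrane-bound dehydrogenase. Slow oxidative fibres are known for high levels of these proteins.

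RNA of 4 bulls of each breed was compared on 4 two-colour arrays, each of which held 1 HER and 1 HF bull, all 15 months old and untreated as far as the labels state. The labels call the arrays biological replicates, and all lay on 1 slide. The samples were tissue pieces from the centre of the muscle, and the paper reports that adipose and connective tissue were cut away. A lower value in one of these pieces may come from fewer cells of a type or from less RNA per cell, which cannot be told apart. Each value below is a log2 ratio of the Cy5 sample over the Cy3 sample of the same array, after correction for dye and background. The dye names in the labels give Cy3 to HER and Cy5 to HF on every array. A remark in the same labels says that the dyes were exchanged to make HF the reference, and the study's own gene tables run the opposite way from the dye names. The paper also reports breed differences of selected genes by qPCR, in the direction of its tables, and of myostatin by Western blot. These were not set beside the ratios here. The breed behind a sign was therefore not settled here, and "higher" means brighter in Cy5 than in Cy3. Because all 4 arrays had the same orientation, a breed difference and a dye effect cannot be told apart for any gene.

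Median raw signal per array was 129 to 160.5 in Cy5 and 77 to 138 in Cy3, over a median background of 37 to 41, and no spot was saturated. Of the 80 tested probes of the set, 78 were well above background in both samples of all arrays. The remaining probes were 1 faint probe each of *LIPE* and *ACAD9*, which had other probes. The tissue label fitted the markers in so far as muscle genes were bright: *ACTA1*, *CKM* and *MB* had mean log2 intensities of 18.0, 17.7 and 17.6.

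Most genes of the pathway had ratios near 0. At the brightest probe of each gene, 2 of the 32 genes were higher in Cy5 (*PNPLA2* and *PLIN2*), 1 was lower (*ETFDH*) and 29 did not pass an adjusted p of 0.05 in limma. That share of 9.38% stood beside 4.46% of all 9426 tested genes called in either direction (2.92% higher and 1.54% lower). The median log2 ratio over the 32 genes was 0.00, with 16 genes above 0 and 16 below, against 0.02 over all tested genes. The size of the log2 ratio had a median of 0.156 in the set and 0.165 over all tested genes. For 21 of the 32 genes it was under 0.25. Counting probes instead of genes, 6 of 80 were called, 7.50% against 3.32% of all tested probes (1.97% higher and 1.35% lower). These belonged to 5 genes: the 3 named above, *ACAA1* and *ACSL1*. None of these calls was kept when any 1 of the 4 arrays was left out, a setting in which 2 to 36 of the 9426 genes were called.

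**Figure D1:**
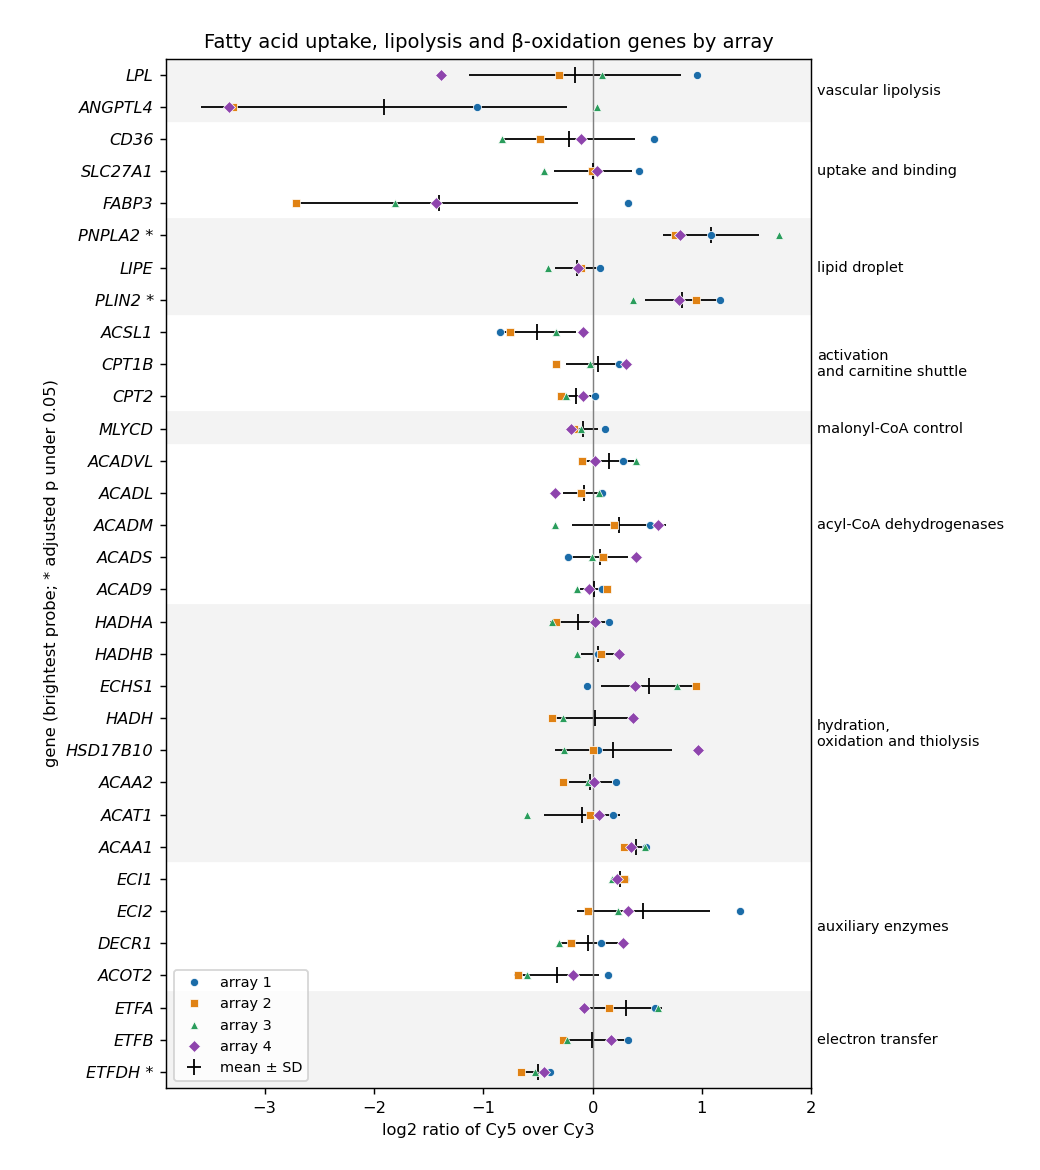
Log2 ratio of Cy5 over Cy3 (x axis) of the brightest probe of each of the 32 measured genes (y axis, ordered by role), with 1 point for each of the 4 arrays and the mean ± SD as a tick with a line (stars mark an adjusted p under 0.05). *PNPLA2* and *PLIN2* lie above 0 on all 4 arrays and *ETFDH* below 0, the points of *FABP3*, *ANGPTL4* and *LPL* are widely spread, and most enzymes lie near 0.

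The lipid droplet genes held both of the higher calls. *PNPLA2* encodes adipose triglyceride lipase, which takes the first fatty acid off stored triglyceride. Its normalized log2 intensity was 13.07, 12.64, 13.76 and 13.14 in the Cy5 samples of arrays 1 to 4, and 11.98, 11.89, 12.05 and 12.35 in the Cy3 samples. Every Cy5 sample was above every Cy3 sample. The log2 ratio was 1.08 ± 0.44 (SD, n = 4), a 2.12-fold difference (limma, adjusted p = 0.0418), and array 3 gave the highest ratio, 1.70. A single probe measured this gene.

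*PLIN2* encodes perilipin 2, a protein that coats lipid droplets and limits access of lipases to them. The Cy5 samples were at 9.28, 9.62, 9.43 and 9.48 and the Cy3 samples at 8.11, 8.67, 9.06 and 8.69 on the log2 intensity scale. The groups did not overlap, but the Cy3 sample of array 3 came within 0.37 of its Cy5 partner, while array 1 gave a ratio of 1.17. The mean log2 ratio was 0.82 ± 0.34 (SD, n = 4), or 1.76-fold (limma, adjusted p = 0.0442), again from 1 probe. *LIPE*, hormone-sensitive lipase, which acts on the diglyceride that *PNPLA2* leaves, had a log2 ratio of -0.15 ± 0.20 (SD, n = 4; limma, adjusted p = 0.429). Its other probes gave 0.02 and -0.04. All tested probes of *LIPE* were dim, the brightest with levels of 6.95 to 7.52, and its ratio was -0.23 with plain subtraction of the background.

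Markers of 2 other cell types were set beside these genes. Of 8 tested macrophage genes (9 listed), none was called, 7 were above 0 and their median was 0.69, with the brightest, *C1QA*, at 1.15 ± 0.79. Their summed level ran from 6958 to 16145 in Cy5 and from 3835 to 6329 in Cy3. The macrophage median was 0.12, 0.75, 0.37 and 1.35 on arrays 1 to 4. On the same arrays the ratio of *PNPLA2* was 1.08, 0.75, 1.70 and 0.80. That of *PLIN2* was 1.17, 0.95, 0.37 and 0.79. Of 8 tested adipocyte genes (10 listed, with *ADIPOQ* and *FASN* not tested), none was called, 3 were above 0 and 5 below. The median was -0.20, with the brightest, *SCD*, at -1.04 ± 0.58. Their summed level was 3648 to 5265 in Cy5 and 4677 to 11280 in Cy3. The median log2 ratio of these genes was -0.79 on array 1 and between -0.17 and 0.06 on the others. *LEP*, the leptin gene, was well above background in all 4 Cy5 samples and in 1 of 4 Cy3 samples, with a log2 ratio of 0.02 ± 0.13. The part of either cell type in the *PNPLA2* and *PLIN2* values was not tested.

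**Figure D2:**
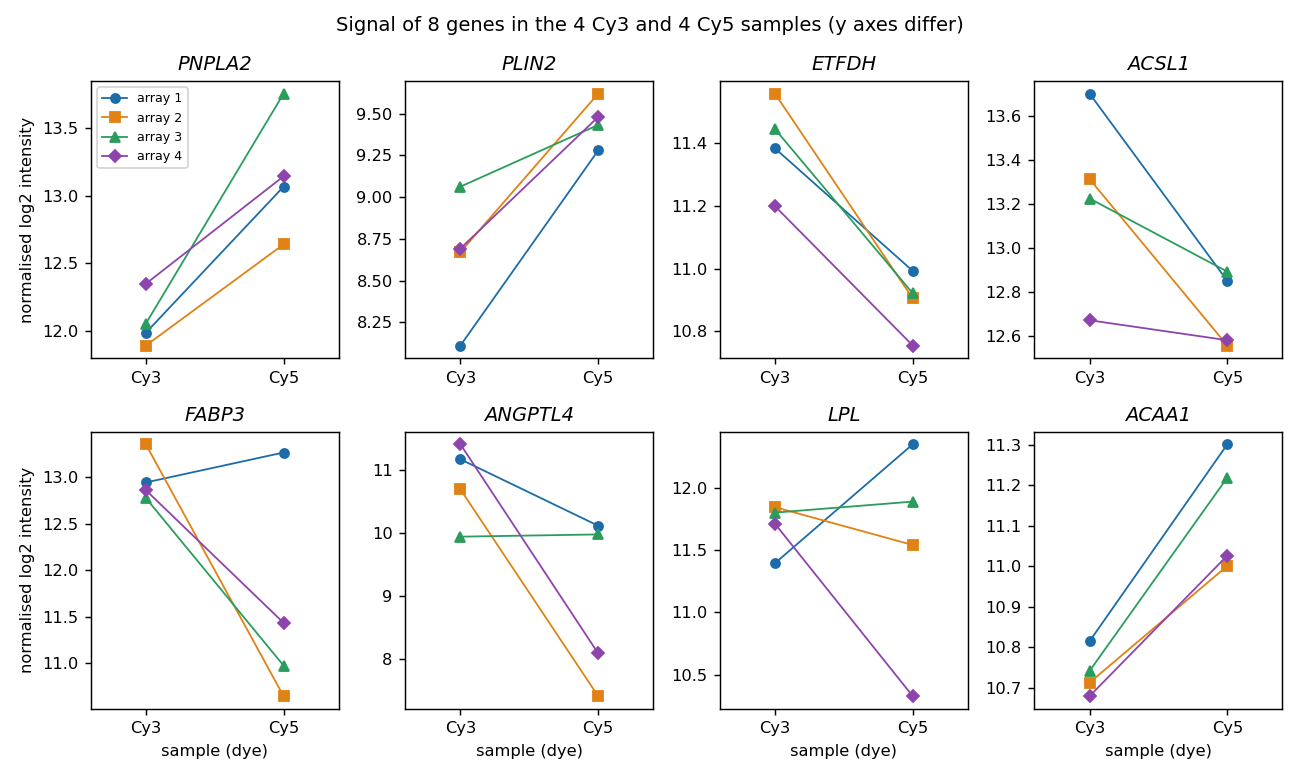
Normalized log2 intensity (y axis) of named genes in the Cy5 and the Cy3 sample of each array, with a line joining the 2 bulls of an array and a y axis of its own for each gene. *PNPLA2*, *PLIN2* and *ACAA1* are higher in all Cy5 samples and *ETFDH* in all Cy3 samples, while *FABP3* and *ANGPTL4* vary more among the Cy5 than among the Cy3 samples.

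Electron transfer was the other role with a gene called at its brightest probe. *ETFDH* encodes the inner-membrane dehydrogenase that passes electrons from the electron transfer flavoprotein to ubiquinone. It was at 10.99, 10.90, 10.92 and 10.75 in the Cy5 samples and at 11.38, 11.56, 11.45 and 11.20 in the Cy3 samples. Every Cy5 sample was below every Cy3 sample, and the ratios of the 4 arrays, -0.39, -0.65, -0.53 and -0.45, lay close together. The mean was -0.50 ± 0.11 (SD, n = 4), a 1.42-fold lower signal (limma, adjusted p = 0.0420). A further probe gave -0.62 ± 0.16 (adjusted p = 0.0355) and the faintest of its 3 probes -0.28 ± 0.07 (adjusted p = 0.0941). The call at the brightest probe was lost with plain subtraction of the background (adjusted p = 0.0687) and with the scanner's processed signals (adjusted p = 0.0727).

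Neither subunit of the flavoprotein was called. *ETFA*, its α subunit, had ratios of 0.57, 0.15, 0.60 and -0.08 on arrays 1 to 4. The mean was 0.31 ± 0.33 (SD, n = 4; limma, adjusted p = 0.238) and the other probes gave 0.30 and 0.36. *ETFB*, the β subunit, was at -0.00 ± 0.29 (adjusted p = 0.992), with a 95% interval of -0.31 to 0.31. The ratio of *ETFDH* was below that of *ETFA* on all 4 arrays, by 0.36 to 1.12 on the log2 scale, and below that of *ETFB* on all 4, by 0.29 to 0.71. These differences were looked at because *ETFDH* had been called and are given as a description.

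Lipolysis at the vessel wall and uptake held the largest ratios of the set, on *ANGPTL4* and *FABP3*, with the widest spread, and none of their 5 genes was called. *FABP3*, the fatty acid carrier of heart and muscle fibres, was at 13.27, 10.64, 10.97 and 11.43 in the Cy5 samples of arrays 1 to 4 and at 12.94, 13.36, 12.78 and 12.86 in the Cy3 samples. The 4 Cy3 samples lay close together, 3 Cy5 samples were well below them, and the Cy5 sample of array 1 was level with the highest. The log2 ratio was -1.41 ± 1.27 (SD, n = 4), or 2.65-fold, with an unadjusted p of 0.0226 and an adjusted p of 0.133 in limma. All 3 probes gave the same picture, with means of -1.41, -1.51 and -1.43. Leaving out array 1 gave a mean of -1.98 (adjusted p = 0.0588), and leaving out each of the other arrays gave -0.97 to -1.40 (adjusted p = 0.276 to 0.323).

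*ANGPTL4*, a secreted inhibitor of lipoprotein lipase whose gene responds to fatty acids, was at 10.12, 7.41, 9.98 and 8.09 in Cy5 and at 11.18, 10.70, 9.95 and 11.42 in Cy3. Ratios on arrays 2 and 4 were -3.29 and -3.33, that on array 1 was -1.06 and that on array 3 was 0.04. The mean of -1.91 ± 1.68 (SD, n = 4), or 3.76-fold, had an unadjusted p of 0.0196 and an adjusted p of 0.125 in limma. It was measured by 1 probe.

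*LPL*, the lipase that *ANGPTL4* inhibits, had ratios of 0.95, -0.30, 0.09 and -1.38. Its mean was -0.16 ± 0.97 (SD, n = 4; limma, adjusted p = 0.824), its 3 probes did not share a sign, and without array 4 the mean was 0.25. *CD36*, the fatty acid translocase of the cell membrane, was at 0.57, -0.48, -0.83 and -0.10, with a mean of -0.21 ± 0.60 (adjusted p = 0.616). *SLC27A1*, a fatty acid transport protein, was at 0.00 ± 0.35 (adjusted p = 0.992), with a 95% interval of -0.35 to 0.36. The interval of *LPL*, -1.03 to 0.71, and that of *CD36*, -0.76 to 0.34, were wider.

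On array 1, *FABP3*, *LPL*, *CD36* and *SLC27A1* were above 0, while *ANGPTL4* was at -1.06. The median of slow-fibre genes was above 0 there, and so were that of the 32 genes, at 0.20, and that of the citric acid cycle, at 0.22. The median log2 ratio of 8 tested slow-fibre contractile genes (10 listed) was 1.75 on array 1 and -0.92, -0.28 and -0.45 on arrays 2 to 4. *MYH7*, the slow myosin heavy chain, was at 2.16 on array 1 and at -1.02, -0.04 and -0.25 on the others. Of the 8 genes, 1 was called, *MYL3*, a slow myosin light chain, at -1.50 ± 0.62 (SD, n = 4; limma, adjusted p = 0.0401). Unlike the median of its list it was below 0 on array 1, at -0.82. The summed level of the list ran from 463879 to 1004200 in Cy5 and from 248867 to 755014 in Cy3. None of 9 tested fast-fibre genes was called, with 5 above 0 and 4 below. Their log2 ratios ran from -1.39 to 0.71 with a median of 0.05, and the brightest, *TNNC2*, was at 0.71 ± 0.53. The part of fibre type in the *FABP3*, *LPL* and *CD36* values was not tested. None of 8 tested endothelial genes was called either, with 4 above 0 and 4 below. They ran from -0.25 to 0.64 with a median of 0.00, and the brightest, *EGFL7*, was at 0.49 ± 0.47. On arrays 1 to 4 the endothelial median was 0.24, -0.34, 0.04 and -0.19. The part of endothelial cells in the *LPL* and *CD36* values was not tested.

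**Figure D3:**
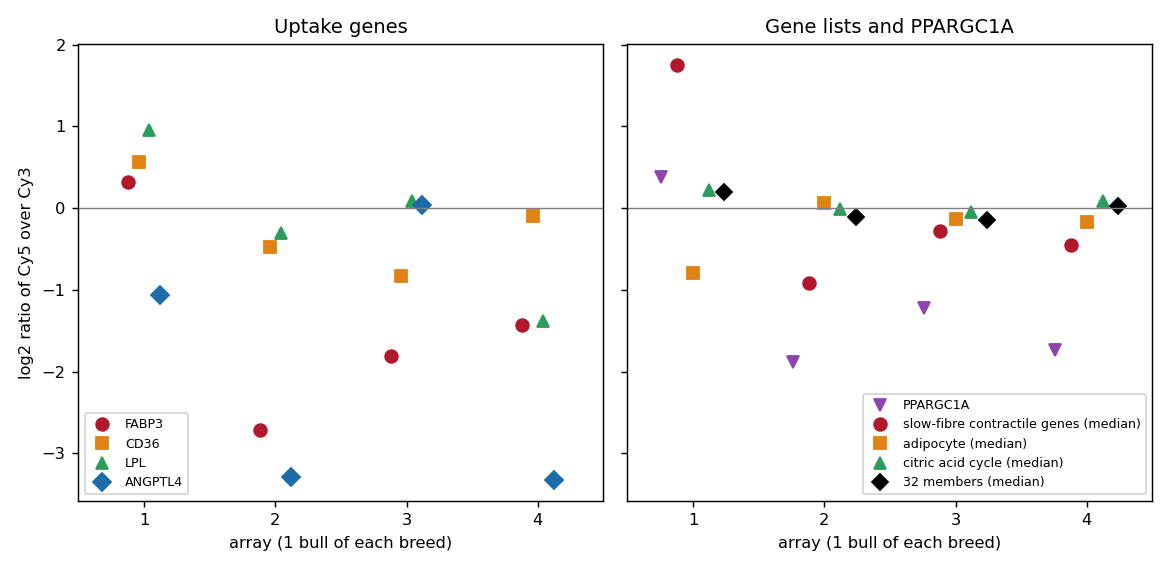
Log2 ratio of Cy5 over Cy3 (y axis) on each of the 4 arrays (x axis), for 4 genes of uptake and lipolysis at the left, and for *PPARGC1A* and the medians of gene lists at the right. *FABP3*, *CD36*, *LPL*, *PPARGC1A* and the slow-fibre and citric acid cycle medians are above 0 on array 1. There *ANGPTL4* is at -1.06 and the adipocyte median at -0.79. The median of the 32 genes stays between -0.15 and 0.20.

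Activation and the carnitine shuttle showed no called gene at the brightest probes. *ACSL1*, the main long-chain acyl-CoA synthetase of muscle, was at 12.85, 12.56, 12.89 and 12.58 in Cy5 and at 13.70, 13.32, 13.23 and 12.67 in Cy3. It was lower in Cy5 on all 4 arrays, by little on array 4 (-0.09), and the Cy3 sample of array 4 lay within the range of the Cy5 samples. The mean was -0.51 ± 0.36 (SD, n = 4; limma, adjusted p = 0.105). All 6 of its probes had means between -0.57 and -0.38 and were below 0 on all 4 arrays. The faintest, at -0.57 ± 0.20, was the only one called (adjusted p = 0.0482). The probes share the same RNA samples and are not replicates.

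*CPT1B*, the muscle form of the carnitine palmitoyltransferase of the outer mitochondrial membrane and the entry point of long-chain acyl groups, had a mean of 0.05 ± 0.29 (SD, n = 4; limma, adjusted p = 0.860). Its other 2 probes gave 0.30 ± 0.10 (adjusted p = 0.0880) and 0.27 ± 0.23, above 0 on all 4 arrays. *CPT2*, which returns the acyl group to coenzyme A on the inner membrane, was at -0.15 ± 0.14 (adjusted p = 0.349). *MLYCD*, malonyl-CoA decarboxylase, which removes the inhibitor of that entry step, was at -0.09 ± 0.14 (adjusted p = 0.576), with ratios of 0.11, -0.17, -0.10 and -0.20. Its only tested probe was dim, with levels of 7.07 to 7.68. The ratio was -0.15 with plain subtraction of the background and -0.18 with the scanner's processed signals. *MLYCD* stood alone for the control by malonyl-CoA.

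The 5 acyl-CoA dehydrogenases, which open each cycle for chains of different length, lay between -0.08 and 0.24. None was called. *ACADM*, for medium chains, had the smallest p of them: 12.80, 12.71, 12.15 and 12.90 in Cy5 and 12.27, 12.52, 12.50 and 12.30 in Cy3, with array 3 opposite to the rest. Its mean was 0.24 ± 0.43 (SD, n = 4; limma, adjusted p = 0.432). *ACADVL*, for very long chains, was at 0.15 ± 0.23, and all 4 of its probes were above 0 (0.05 to 0.21). *ACADS*, for short chains, was at 0.06 ± 0.26, *ACADL*, for long chains, at -0.08 ± 0.20, and *ACAD9*, which also helps to assemble respiratory complex I, at 0.01 ± 0.12. The 95% interval of *ACAD9*, -0.19 to 0.22, was the narrowest of the 5, and that of *ACADM*, -0.17 to 0.66, the widest.

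The enzymes of hydration, oxidation and thiolysis held no called gene at the brightest probes. Of all tested genes, 17.8% had a fold change of 1.3 or more together with an unadjusted limma p of 0.05 or less. Such a ratio was found for 2 of the 8 enzymes, both higher, beside 10.6% of all tested genes higher. One was *ACAA1*, the ketoacyl-CoA thiolase of peroxisomes. It was at 11.30, 11.00, 11.22 and 11.03 in Cy5 and at 10.81, 10.71, 10.74 and 10.68 in Cy3, without overlap. The mean was 0.40 ± 0.10 (SD, n = 4; limma, adjusted p = 0.0554), and its second probe, at 0.44 ± 0.09, was called (adjusted p = 0.0471).

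The other was *ECHS1*, the short-chain enoyl-CoA hydratase of mitochondria, with ratios of -0.05, 0.94, 0.77 and 0.39. Its mean was 0.51 ± 0.44 (SD, n = 4; limma, unadjusted p = 0.0247, adjusted p = 0.139) and its second probe gave 0.45 ± 0.39. The Cy5 sample of array 4, at 12.82, was below 3 of the Cy3 samples, so the groups overlapped. The mitochondrial thiolases *ACAA2* and *ACAT1* were at -0.02 ± 0.20 and -0.09 ± 0.35.

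*HADHA* and *HADHB* encode the subunits of the mitochondrial trifunctional protein, which acts on long chains. They are neighbouring genes in the RefSeq annotation of the bovine genome. *HADHA* was at -0.13 ± 0.26 (SD, n = 4; limma, adjusted p = 0.535) and its other probes at -0.17 and -0.18. *HADHB* was at 0.05 ± 0.16 (adjusted p = 0.771) at its brightest probe but at -0.24 and -0.25 (adjusted p = 0.170 and 0.181) at the others, so its probes disagreed in sign. *HADH*, the dehydrogenase for short hydroxyacyl chains, was at 0.02 ± 0.40. *HSD17B10*, a hydroxyacyl-CoA dehydrogenase that also serves isoleucine breakdown, was at 0.19 ± 0.54, with 0.97 on array 4 and -0.26 to 0.05 on the others.

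None of the 4 auxiliary enzymes was called. *ECI1*, an isomerase that moves double bonds of unsaturated chains, had ratios of 0.30, 0.29, 0.18 and 0.22, with the smallest SD of the 32 genes. Its levels were 10.83, 10.59, 10.55 and 10.42 in Cy5 and 10.53, 10.30, 10.37 and 10.19 in Cy3. The ratio was above 0 on all 4 arrays while the levels of the 2 groups overlapped. The 2 samples of an array tended to be high or low together, and whether this came from the bulls or the array was not tested. The mean was 0.25 ± 0.06 (SD, n = 4; limma, unadjusted p = 0.0155, adjusted p = 0.112), and a second probe gave 0.05 ± 0.16.

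*ECI2*, a related isomerase also found in peroxisomes, was at 1.35 on array 1 and between -0.04 and 0.32 on the others, with a mean of 0.46 ± 0.61 (SD, n = 4; limma, adjusted p = 0.276). Its 3 probes, at 0.46, 0.56 and 0.40, all had their highest value on array 1. *DECR1*, the dienoyl-CoA reductase, was at -0.04 ± 0.27. *ACOT2*, a mitochondrial thioesterase that releases free fatty acids from coenzyme A, was at -0.33 ± 0.38 (adjusted p = 0.255), with 0.14 on array 1 and -0.68, -0.60 and -0.18 on the rest. Its probe was dim, and the ratio was -0.47 with plain subtraction of the background and -0.51 with the scanner's processed signals.

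Probes of the same gene were compared as a check on single values. Of the 27 genes with 2 or more tested probes, 19 had probes of one sign and 8 did not (*ACAA2*, *ACAD9*, *ACADS*, *DECR1*, *ETFB*, *HADHB*, *LIPE* and *LPL*). All 8 were uncalled at every probe, and in all of them the probe means lay between -0.28 and 0.22. *PNPLA2*, *PLIN2*, *ANGPTL4*, *ACOT2* and *MLYCD* each rested on 1 tested probe.

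**Figure D4:**
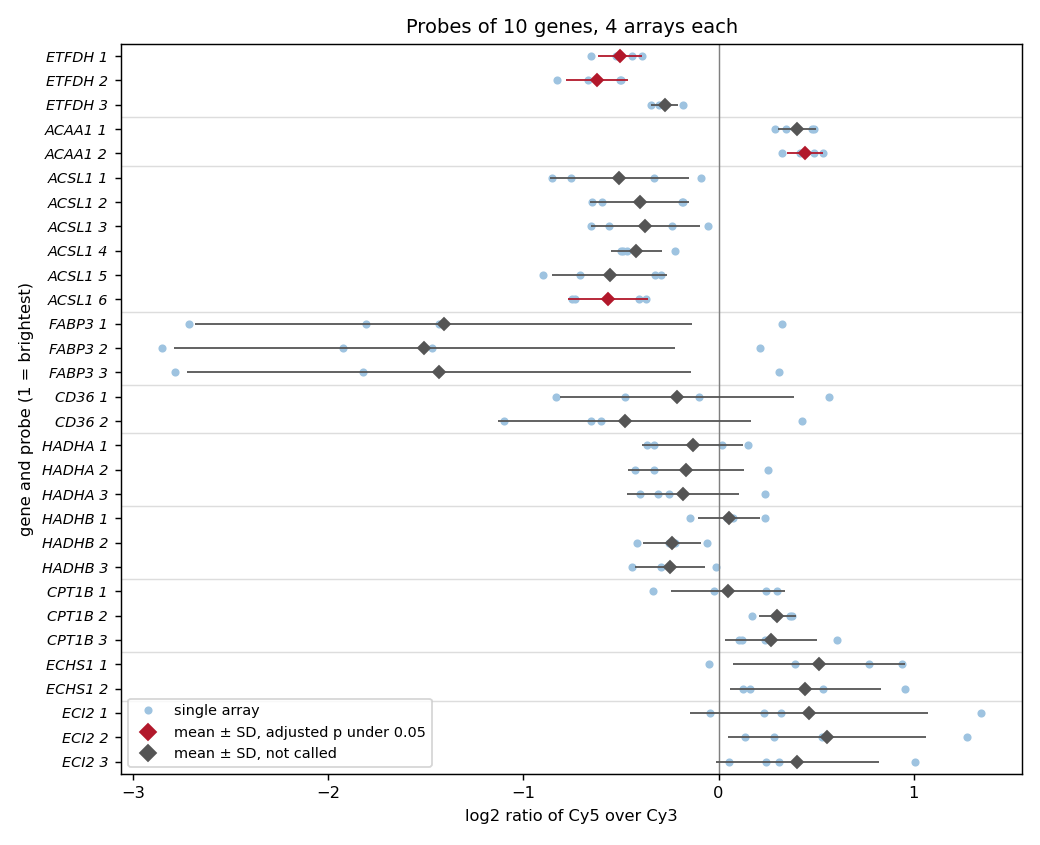
Mean log2 ratio of Cy5 over Cy3 (x axis) with its SD over 4 arrays for every tested probe of 10 genes measured by several probes (y axis), with a pale point for each array and red diamonds for probes with an adjusted p under 0.05. The 6 probes of *ACSL1* and the 3 of *ETFDH* lie below 0 and the 2 of *ACAA1* above, while the probes of *HADHB* fall on both sides.

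The SD of the log2 ratio had a median of 0.313 over the 32 genes and 0.230 over all tested genes. It was above 0.5 for 6 genes, namely *ANGPTL4*, *FABP3*, *LPL*, *ECI2*, *CD36* and *HSD17B10*, and above 1 for *ANGPTL4* and *FABP3*. The ratio had one direction on all 4 arrays for 6 of the 32 genes (18.8%), 4 above 0 (*PNPLA2*, *PLIN2*, *ACAA1* and *ECI1*) and 2 below (*ACSL1* and *ETFDH*), beside 34.2% of all tested genes (20.4% above and 13.8% below). The Cy5 and Cy3 samples did not overlap for 4 genes (12.5%), 3 higher in Cy5 and 1 lower, beside 15.9% of all tested genes (9.43% higher and 6.47% lower). A fold change of 1.3 or more with an unadjusted limma p of 0.05 or less was found for 8 genes (25.0%), 4 higher (*PNPLA2*, *PLIN2*, *ACAA1* and *ECHS1*) and 4 lower (*ETFDH*, *ACSL1*, *FABP3* and *ANGPTL4*), beside 17.8% of all tested genes (10.6% higher and 7.18% lower). Among probes it was found for 18 of 80 (22.5%), 7 higher and 11 lower, beside 14.4% of all tested probes (7.96% higher and 6.48% lower). The study's methods used a t test in place of limma's p. With that test, 4 genes (12.5%) passed at the same thresholds, 3 higher (*PNPLA2*, *PLIN2* and *ACAA1*) and 1 lower (*ETFDH*), beside 11.3% of all tested genes (6.96% higher and 4.31% lower).

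A wider list of 84 other genes of the pathway was read beside the set. Of these, 66 were tested, with a median log2 ratio of 0.02. Of all tested genes, 2.92% were called higher and 1.54% lower. Among the 66 genes, none was called higher and 2 were called lower. One was *ACADSB*, the dehydrogenase for short branched chains, which passes its electrons to the same flavoprotein. Its ratios were -0.40, -0.74, -0.70 and -0.40, with a mean of -0.56 ± 0.18 (SD, n = 4; limma, adjusted p = 0.0449). It was the 1 called gene among 16 tested of 19 for carnitine, acyl-CoA and mitochondrial oxidation.

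The other was *ESRRA*, estrogen-related receptor α, a nuclear receptor that drives genes of oxidative metabolism. It was at -0.58, -1.66, -0.95 and -0.81, with a mean of -1.0 ± 0.47 (SD, n = 4; limma, adjusted p = 0.0486). *ESRRA* was the 1 called gene of 13 tested regulators (18 listed). Of these regulators 5 were above 0 and 8 below, from -1.16 to 0.57, with a median of -0.10. *UCP3*, the uncoupling protein of muscle mitochondria, was at -1.16 ± 0.58 and just missed the threshold (adjusted p = 0.0516). *PPARGC1A*, the coactivator of *ESRRA*, was at 0.38 on array 1 and at -1.88, -1.23 and -1.73 on the others, with a mean of -1.11 ± 1.04 (adjusted p = 0.142).

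No gene was called among 9 tested for uptake and binding, 10 for lipid droplets and triglyceride, 13 for peroxisomal oxidation and 5 for ketone bodies. The smallest p of each of the first 3 lists belonged to *SLC27A6*, a fatty acid transport protein, at 1.22 ± 0.81 (SD, n = 4; limma, adjusted p = 0.0775), *CIDEC*, a droplet fusion protein, at -0.67 ± 0.74 (adjusted p = 0.205), and *ACOX3*, a peroxisomal acyl-CoA oxidase, at 0.60 ± 0.24 (adjusted p = 0.0508). *ABHD5*, the coactivator of *PNPLA2*, was at 0.04 ± 0.07, and *G0S2*, its inhibitor, at 0.21 ± 0.73. None of the 16 tested genes of the citric acid cycle was called, and their median was 0.02, with 8 above 0 and 8 below. The smallest p among them was that of *SDHB*, a subunit of succinate dehydrogenase, at 0.49 ± 0.23 (adjusted p = 0.0665). Across arrays 1 to 4 that median was 0.22, -0.02, -0.04 and 0.09, and that of the 32 genes 0.20, -0.11, -0.15 and 0.03.

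The counts depended on how the dyes were balanced. When each array was centred on its median log ratio in place of the correction by intensity (loess), the median over all tested genes moved to 0.43 and that of the 32 genes to 0.66. Then 20 of the 32 genes (62.5%) were called higher and 0 lower, beside 43.7% of all tested genes called higher. Relative to all tested genes, the median of the set was 0.23 higher in that setting and 0.02 lower with loess. *PNPLA2* at 1.80 and *PLIN2* at 1.32 kept their sign and call, whereas *ETFDH* turned to 0.15 (limma, adjusted p = 0.439) and *ACSL1* to 0.23, and *FABP3* and *ANGPTL4* were at -0.69 and -1.35.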

How the data were processed

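RNA of 4 HER and 4 HF bulls was hybridised to 4 two-colour Agilent bovine arrays (Btau_3.1 design), each with 1 bull of each breed. The deposited scanner files (Feature Extraction 10.7.3.1) hold the red and green signal intensity and local background of each spot, and the deposited series table holds the authors' log10 ratio of red over green, which equalled the scanner's ratio. From 7.41 to 12.2% of these ratios per array were set to 0. Median signals were corrected with normexp (offset 50), normalized within arrays by loess with control spots at weight 0, and averaged per probe without outlier spots. For levels per sample, channels were also scaled between arrays (Aquantile). Probes well above background in the same channel on all 4 arrays were kept (32608 of 43653). Log2 ratios were tested against 0 with limma 3.58.1 in R 4.3.3, with Benjamini-Hochberg adjustment over all 32608 probes. A call is an adjusted p under 0.05. A gene is represented by its brightest tested probe. Gene names came from a match of probe accessions to RefSeq genes (ARS-UCD2.0), which named 19155 tested probes. The fit was tested on simulated data. Intensities are relative. The number of arrays limits the precision.

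The members, gene lists and tests were chosen with earlier results of these data known. In full, the text gives members with a called probe and the member of each role with the smallest p. Of the other lists it gives called genes or the one with the smallest p, and of the cell type lists it describes up to 3 of the brightest. The gene of this kind in the ketone body list is not reported here. *ECHS1*, *LPL*, *CD36*, *CPT1B*, *ECI2*, *ACOT2*, *UCP3*, *PPARGC1A*, *LEP*, *ABHD5* and *G0S2* were given in more detail after their values were seen. Alternatives covered background correction, normalization, the filter, the prior, the methods' t-test, separate-channel analysis, the rule for probes and leaving out each array.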

Additional observations from a re-analysis of the deposited data

How the results depend on the processing

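With median centring in place of loess, members called were 20 higher and 0 lower, member probes 41 and 1, other pathway genes 29 and 0, and the members' median was 0.66. Of all tested genes, 43.7% were called higher. All-probe calls were 10013 higher and 712 lower around a median of 0.24. *HADHA* (0.55), *ACAA2* (0.69), *ACAT1* (0.61), *DECR1* (0.52), *ETFB* (0.71) and *ETFDH* (0.15) changed sign, as did *LPL* (0.51), *CD36* (0.44), *ACSL1* (0.23), *CPT2* (0.43), *MLYCD* (0.07) and *ACADL* (0.16), 12 members in all. Under the other alternatives, 13 members with log2 ratios between -0.16 and 0.19 took the opposite sign at least once, none of them called, among them *LPL* at 0.25 without array 4. Leaving out 1 array at a time gave 0 members and 0 member probes called in either direction, and 0 to 1 other pathway genes called lower. The adjusted p then ran from 0.0783 to 0.108 for *PNPLA2*, from 0.0762 to 0.147 for *PLIN2* and from 0.0700 to 0.140 for *ETFDH*, all with the same sign. Fewer samples entered each of these fits.

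Members called lower numbered 0 with plain background subtraction, scanner-processed signals, the series table and an intensity trend with robust prior. Members called higher numbered 1 without the filter on dim probes, where *PLIN2* had an adjusted p of 0.0530. Other pathway genes called higher numbered 1 without background correction, with the filter on both channels, with the trend, in the separate-channel fit and with the mean over probes. Those called lower numbered 0 with scanner-processed signals and the series table, 1 without the filter and 4 in the separate-channel fit, which also called 5 member probes lower. That fit called 466 of 9419 genes and 1466 of 32592 probes lower. The causes were not tested.

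At an unadjusted p of at most 0.05 and a fold change of at least 1.3, limma called 4 members higher and 4 lower, 7 and 11 member probes, and 3 and 7 other pathway genes. Beside these stood 10.6% of all tested genes higher and 7.18% lower, and 7.96% and 6.48% of all tested probes. The methods' t-test at those thresholds called 3 members higher and 1 lower, 4 member probes higher and 6 lower, and 1 other pathway gene higher and 4 lower. Of all tested genes, 6.96% were higher and 4.31% lower by that t-test, and its share over all probes was not computed. After Benjamini-Hochberg the methods' t-test called 0 members, 0 member probes and 0 other pathway genes in either direction. A filter on either channel on each array, chosen after seeing the data, was run only at an adjusted p under 0.05. There it changed none of the counts of members, member probes and other pathway genes called by limma.

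Each log ratio compares the 2 bulls of an array, so the test is paired by array, and the separate-channel fit modelled the same pairing with an intraspot correlation of 0.197. With 4 ratios per gene, genes with a wide spread have wide intervals, such as -1.03 to 0.71 for *LPL*. Faint probes limit *LIPE* and *ACAD9*, and *MLYCD*, *ACOT2* and *ACADL* were also dim at their brightest probe.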
